A study of Mus musculus with 12 samples.

Results

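Transcripts of the insulin-like growth factor (IGF) family were examined in cultured mouse bone marrow cells. The family comprised 10 genes, the ligands Igf1 and Igf2, the receptors Igf1r and Igf2r and the binding protein genes Igfbp2 to Igfbp7, chosen by name as members of a known signaling family. All 28 probe sets whose annotation gave a member as the only gene symbol were taken, of 45037 probe sets and 18193 genes on the array. Co-cultures of mesenchymal stem/stromal cells (MSCs) with hematopoietic stem/progenitor cells (HSCs) (treated) and MSC-only cultures (control) had 6 arrays each, all of C57BL6/J bone marrow cells from mice labelled as male and 6 weeks old. The study's co-culture methods describe MSCs of mice that carry EGFP, driven in all tissues by the CAG promoter, while the labels of these arrays give the 1 strain and no EGFP allele. In both groups 3000 MSCs, sorted as Sca-1 and PDGFR-α positive, were seeded, together with 7000 HSCs, sorted as Lin-, Sca-1+ and c-Kit+, in the co-culture group and 0 in the MSC-only group. RNA was extracted on day 6. The sources do not say which samples share a mouse or a cell preparation, so p-values measure the spread between these 12 samples, which may be technical.

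IGF1 and IGF2 are secreted growth factors that act through the receptor tyrosine kinase encoded by Igf1r, while the product of Igf2r, which is also the mannose 6-phosphate receptor of lysosomal enzyme transport, takes up IGF2 for degradation. Most of the ligand outside cells is held by binding proteins, which prolong its life and can limit or deliver it to the receptor, and which proteases such as PAPP-A release. In bone marrow, IGF1 promotes osteoblast and hematopoietic growth, and macrophages and stromal cells are both known to express it. IGFBP7 binds IGFs only weakly and is deposited in the matrix and around vessels.

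Both groups held leukocyte and macrophage RNA beside stromal RNA. Ptprc, which encodes the leukocyte protein CD45 against which the MSCs had been sorted, gave a signal of 11519 to 12642 in co-culture and 10425 to 13144 in MSC-only arrays, and 15 of 16 macrophage markers had a mean signal of at least 100. Gpnmb, the brightest of them, had 30949 to 50209 in co-culture and 28863 to 46103 in MSC-only arrays. The summed signal of the macrophage markers was 261262 to 338474 in co-culture and 248496 to 342760 in MSC-only arrays, that of the 20 stromal markers 57484 to 95787 in co-culture and 64872 to 112219 in MSC-only arrays. Such sums lean on the brightest markers and do not measure a share of cells. In the stromal list these were Fn1, Acta2 and Col1a2, with mean signals of 17627, 15956 and 15224. Pdgfra, the gene of the sort marker, was measured at 407 to 1464 in co-culture and 583 to 1162 in MSC-only arrays, whereas Kit of the HSC sort did not exceed 67.2 and endothelial Pecam1 did not exceed 36.6 on any array. Xist, a transcript of female cells, had a signal of 13136 or more in 8 arrays, against the male label. It was accompanied by the Y-linked gene Eif2s3y at 1022 to 1331 in co-cultures 1, 2, 5 and 6, while MSC-only arrays 1, 2, 5 and 6 had Eif2s3y at 2604 to 2845 and Xist at 118 or less. The arrays numbered 3 and 4 had Xist at 16810 to 21978 and Eif2s3y at 13.6 or less in both groups, and each main result is therefore also given without those 4 arrays. In bulk RNA, fewer cells of a type and less RNA per cell cannot be told apart.

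Of the 28 probe sets, 0 passed limma at an adjusted p under 0.05, where 0.00444% of all probe sets did (2 of 45037). At an unadjusted p under 0.05 there was 1, of Igfbp5, higher in the co-cultures, against 4.36% of all probe sets in either direction and 2.81% in that direction. The same probe set was the single one with an exact permutation p under 0.05, against 4.34% of all probe sets. In 0 of the 28 did the co-culture and MSC-only signals fail to overlap, against 0.198% of all probe sets. With each gene represented by its probe set of highest mean signal, 4 genes (Igf1, Igf2r, Igfbp2 and Igfbp5) were higher on average in the co-cultures and 6 were lower, where 53.2% of all 18193 genes were higher and 46.8% lower. Their median log2 difference was -0.08, against 0.01 over all genes. Differences are given as co-culture minus MSC-only on log2(signal + 16), which understates the change of dim transcripts, and the signal of a probe set cannot be set against that of another. All adjusted p-values of the 28 from limma were 1 over the 12 arrays.

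**Figure D1:**
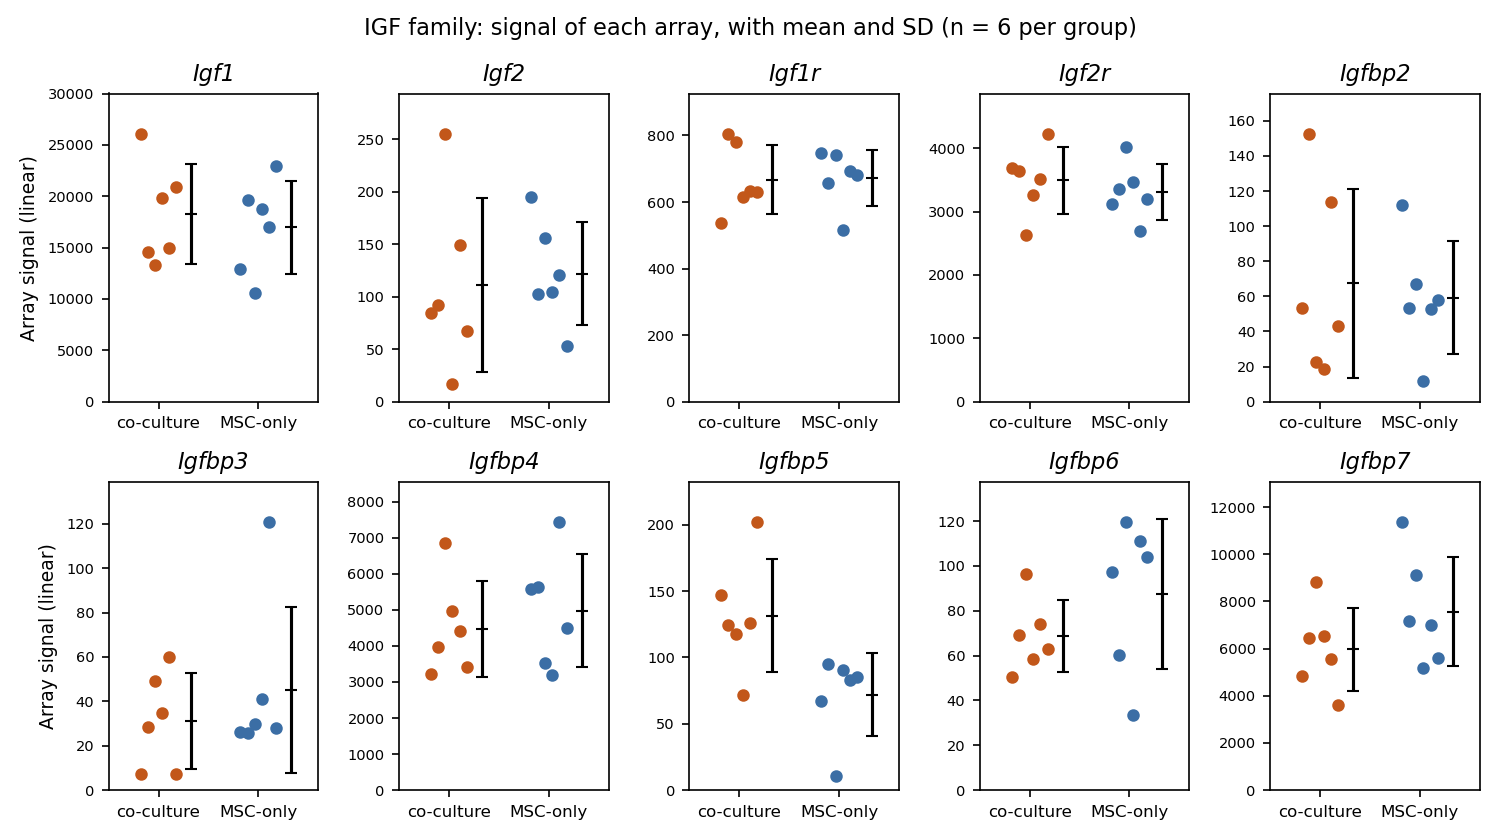
Linear array signal of the brightest probe set of each IGF family gene, a point per array, with co-culture (orange) left of MSC-only (blue) and the mean and SD of 6 arrays beside each group. The groups overlap for all 10 genes, and Igfbp5 shows 5 of 6 co-cultures above every MSC-only array.

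The 250 bases before the annotated transcription start are shown for Igf1, Igfbp4, Igfbp5 and Igfbp7, the 4 genes on which the array values below turn. All 10 genes matched the RefSeq promoter table of GRCm38.p6, with 14 windows. Capitals mark matches, on either strand, to TATAAA (the TATA box), GGGCGG (the GC box bound by Sp1) or GAGGAA (the core of sites bound by PU.1, a factor of macrophages), which occur in 12.4%, 32.7% and 23.3% of the 32851 windows of this length.
Igf1, chr10:87860861-87861110, strand +: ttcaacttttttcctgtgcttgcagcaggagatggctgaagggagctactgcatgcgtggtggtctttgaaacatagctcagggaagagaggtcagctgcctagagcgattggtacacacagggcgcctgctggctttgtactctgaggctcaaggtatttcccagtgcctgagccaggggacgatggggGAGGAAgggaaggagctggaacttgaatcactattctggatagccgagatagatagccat
Igfbp4, chr11:99040994-99041243, strand +: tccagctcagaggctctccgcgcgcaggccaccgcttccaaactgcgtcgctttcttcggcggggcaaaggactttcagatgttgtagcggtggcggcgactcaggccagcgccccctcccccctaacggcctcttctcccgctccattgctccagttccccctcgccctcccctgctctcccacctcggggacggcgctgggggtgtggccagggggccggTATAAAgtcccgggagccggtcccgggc
Igfbp5, chr1:72874866-72875115, strand -: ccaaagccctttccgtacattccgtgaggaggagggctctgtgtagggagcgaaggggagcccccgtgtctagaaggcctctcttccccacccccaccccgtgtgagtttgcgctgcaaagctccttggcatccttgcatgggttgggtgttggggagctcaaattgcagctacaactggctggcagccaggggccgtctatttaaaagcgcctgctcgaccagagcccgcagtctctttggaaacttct
Igfbp7, chr5:77408046-77408295, strand -: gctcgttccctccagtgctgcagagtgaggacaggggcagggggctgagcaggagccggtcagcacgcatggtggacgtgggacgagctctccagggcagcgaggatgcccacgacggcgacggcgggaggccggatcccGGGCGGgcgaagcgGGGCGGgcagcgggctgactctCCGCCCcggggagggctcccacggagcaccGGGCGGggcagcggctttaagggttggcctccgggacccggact
The Igf1 window held 1 match to GAGGAA, the Igfbp4 window 1 match to TATAAA and the Igfbp7 window 4 matches to GGGCGG, while these letters were not in the Igfbp5 window. Among the members not printed, GAGGAA was also in windows of Igf2, Igfbp2 and Igfbp6, so it was not particular to Igf1. TATAAA was in the Igfbp6 window and GGGCGG in windows of Igf1r, Igf2, Igf2r and Igfbp2. A match is a description of the letters and the arrays do not measure binding.

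Igf1 was the ligand with the clear signal, and its level differed between cultures but not detectably between groups. Its brightest probe set, 1437401_at, gave signals of 26101, 14617, 13307, 19824, 15001 and 20946 in co-cultures 1 to 6. MSC-only arrays 1 to 6 gave 12965, 19637, 10616, 18763, 16998 and 23002. Co-cultures 1, 4 and 6 and MSC-only arrays 2, 4 and 6 were thus high, at 18763 or more, and the other 6 arrays were at 16998 or less, 3 of each group on either side. The group means were 18299 ± 4890 in co-culture and 16997 ± 4541 in MSC-only arrays (SD, n = 6 each), a log2 difference of 0.11 (SE 0.21, 95% interval -0.35 to 0.58, limma adjusted p = 1). The other probe sets differed by 0.04, 0.11 and 0.03, and without the arrays numbered 3 and 4 the difference was 0.07 (limma adjusted p = 0.981).

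All 4 Igf1 probe sets placed the same 6 arrays highest. At 1419519_at the 6 high arrays had 10639 or more and the 6 low ones 7572 or less. These 6 arrays were also those on the negative side of the first principal component of all probe sets, which held 21.6% of the variance. The pattern was shared by many genes, since 738 of 10180 genes with a mean signal of at least 100 (7.25%) had the same 6 arrays highest and 749 (7.36%) had the same 6 lowest. Among 15 macrophage markers above that signal, Adgre1 (F4/80), Itgam (CD11b) and the scavenger receptor gene Msr1, named after their values were seen, had the same 6 arrays highest, and 0 had them lowest. Adgre1 was at 13941 to 16686 on the 6 arrays high in Igf1 and at 8833 to 12218 on the other 6, and Itgam at 760 to 1746 on the high and 269 to 496 on the low ones. Csf1r, the receptor gene of macrophage colony-stimulating factor, ran the other way for the most part, with 22598 to 31022 on the arrays high in Igf1 and 30954 to 39489 on the others. The summed macrophage markers also ran the other way for the most part, at 248496 to 298447 on the arrays high in Igf1 and 288780 to 342760 on the others. Of 8 pan-leukocyte markers, 0 had these 6 arrays highest and 1, Cd53, had them lowest. The part of macrophage number or state in the Igf1 level was not tested. Of 16 stromal markers above the same signal, 0 had these 6 arrays highest and 0 had them lowest. The summed stromal markers were nevertheless lower for the most part on the arrays high in Igf1, at 57484 to 83115, against 64476 to 112219 on the others. Cxcl12 was at 829 to 3368 on the high arrays and 2770 to 9227 on the others. Pdgfra overlapped widely, at 448 to 1162 and 407 to 1464. The part of the stromal share in the Igf1 level was not tested.

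**Figure D2:**
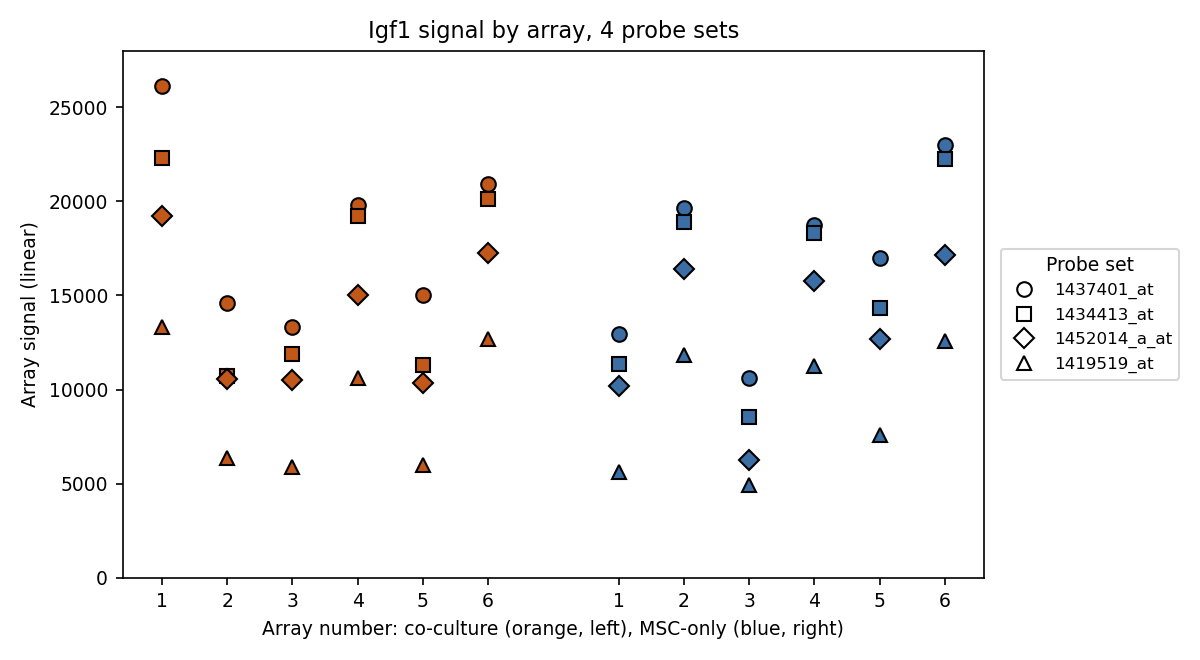
Linear signal of the 4 Igf1 probe sets (marker shapes) on each array, with co-cultures 1 to 6 on the left and MSC-only arrays 1 to 6 on the right. Co-cultures 1, 4 and 6 and MSC-only arrays 2, 4 and 6 are the high arrays for every probe set, and the lowest values lie at MSC-only 3.

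Igf2, the fetal ligand, gave a weak signal, with a mean of 116.5 over the 12 arrays at its brighter probe set. Its brighter probe set, 1448152_at, had signals of 84.7, 91.9, 255.5, 16.9, 149.8 and 67.2 in co-cultures 1 to 6 and 195.5, 103, 156, 104, 120.5 and 53.2 in MSC-only arrays 1 to 6. The co-cultures thus spanned the whole MSC-only range, with co-culture 3 above and co-culture 4 below it. The log2 difference was -0.31 (SE 0.43, 95% interval -1.24 to 0.62, limma adjusted p = 1), -0.17 without the arrays numbered 3 and 4 and -0.06 when averaged over both Igf2 probe sets. The second probe set did not exceed 27.0 on any array. The genes whose signals across the 12 arrays were most like those of Igf2, of 10179 genes compared, were Slc6a9, Nrp, Rgs9, Tbc1d22b and Cry1, with Pearson's r of 0.877 to 0.817 as a description of the best matches among many. These r values include co-culture 4, the widest deviation of Igf2 at -1.83 log2 units, and were not computed without it.

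At their brightest probe sets the receptor transcripts varied between cultures about as much as the middle of the bright probe sets. They did not differ detectably between groups. Igf1r had signals of 538, 805, 781, 616, 634 and 629 in co-cultures 1 to 6 at its brightest probe set, 1428967_at, and 747, 658, 741, 515, 693 and 681 in MSC-only arrays 1 to 6. The highest array was 1.56 times the lowest, and the spread around the group means, 0.20 log2 units, lay at the 48.0th percentile of probe sets with a mean signal of at least 100. The difference was -0.01 (SE 0.13, 95% interval -0.29 to 0.26, limma adjusted p = 1), and the other 4 probe sets of Igf1r differed by -0.16 to 0.17. Without the arrays numbered 3 and 4 the Igf1r difference was -0.10. Igf2r measured 3681, 3643, 2634, 3259, 3515 and 4229 in co-cultures 1 to 6 and 3120, 3360, 4021, 3463, 2691 and 3198 in MSC-only arrays 1 to 6 (1424112_at). Its difference was 0.07 (SE 0.13, 95% interval -0.20 to 0.35, limma adjusted p = 1), and that of its second probe set 0.00. Without the arrays numbered 3 and 4 the Igf2r co-cultures lay at 3515 to 4229 and the MSC-only arrays at 2691 to 3360, with a difference of 0.28 (limma adjusted p = 0.727), which the second probe set did not share (0.02). The second probe set, 1424111_at, had the same 6 arrays highest as Igf1. Its spread lay at percentile 69.3, against 49.7 for 1424112_at.

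Igfbp4, which encodes an inhibitory binding protein cleaved by PAPP-A, varied 2.33 times between the lowest and the highest array. Signals at 1437405_a_at were 3209, 3962, 6844, 4972, 4416 and 3416 in co-cultures 1 to 6, against 5573, 5642, 3527, 3190, 7427 and 4506 in MSC-only arrays 1 to 6. Over all arrays the groups overlapped throughout, with means of 4470 ± 1330 in co-culture and 4978 ± 1569 in MSC-only arrays (SD, n = 6 each) and a difference of -0.14 (SE 0.23, 95% interval -0.64 to 0.36, limma adjusted p = 1). At numbers 3 and 4 both co-cultures, at 6844 and 4972, lay above both MSC-only arrays, at 3527 and 3190. At numbers 1, 2, 5 and 6 all 4 co-cultures, at 3209 to 4416, lay below the 4 MSC-only arrays, at 4506 to 7427, a difference of -0.61 (SE 0.18, limma adjusted p = 0.581). The change of direction between these sets of arrays was not tested. Of the 6 Igfbp4 probe sets, 2 separated the 8 arrays numbered 1, 2, 5 and 6 in this way and 3 had an unadjusted p under 0.05.

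Over all 28 probe sets of the family, 7 had an unadjusted p under 0.05 in those 8 arrays, where 6.85% of all probe sets did, and 0 passed the adjusted threshold, where 0.0178% did (8 of 45037). The 7 were not separate genes, since they held 3 probe sets of Igfbp4 and both of Igfbp5, which differed in opposite directions (0.74 and -1.62). The others were Igf2r 1424112_at and Igfbp7 1423584_at. All 4 co-cultures lay above the 4 MSC-only arrays for 2 of the 28 (2.36% of all probe sets) and below them for 2 (2.03% of all probe sets). The summed stromal markers of the same arrays were 62985, 73878, 64476 and 57484 in co-cultures 1, 2, 5 and 6, against 112219, 77369, 95965 and 83115 in MSC-only arrays 1, 2, 5 and 6, so that every co-culture was lower. These sums lean on Fn1, Acta2 and Col1a2, the brightest of the list. At numbers 3 and 4 the stromal sums were 95787 and 77676 in co-culture, against 102183 and 64872 in MSC-only arrays, so that co-culture 3 was below MSC-only 3 in stromal markers and above it in Igfbp4. Co-cultures 1, 2, 5 and 6 carried both Xist and Eif2s3y and MSC-only arrays 1, 2, 5 and 6 Eif2s3y alone. The arrays numbered 3 and 4 carried Xist alone in both groups. The part of the stromal share and of the mixed sex-linked signals in the Igfbp4 values was not tested.

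Igfbp7 averaged lower in the co-cultures, within the spread between arrays. Its brightest probe set, 1423584_at, gave 4842, 6433, 8815, 6530, 5558 and 3629 in co-cultures 1 to 6 and 11359, 7179, 9102, 5183, 6982 and 5613 in MSC-only arrays 1 to 6. MSC-only 1 and 3 and co-culture 3 were highest and co-cultures 6 and 1 and MSC-only 4 lowest. The means were 5968 ± 1763 in co-culture and 7570 ± 2312 in MSC-only arrays (SD, n = 6 each), a difference of -0.34 (SE 0.23, 95% interval -0.84 to 0.16, limma adjusted p = 1), and -0.59 without the arrays numbered 3 and 4 (limma adjusted p = 0.728). The other Igfbp7 probe sets, both dimmer, differed by -0.10 and -0.08. Of 16 stromal markers with a mean signal of at least 100, 5 had the same 3 arrays lowest as Igfbp7 (Cxcl12, Col1a2, Col3a1, Dcn and Fn1), against 5.12% of 10180 genes, and 2 had the same 3 highest (Cxcl12 and Sparc), against 2.75%. The fibronectin gene Fn1 measured 10812 in co-culture 6, 13939 in co-culture 1 and 11718 in MSC-only 4, and was at 15503 or more on the other arrays. Others went differently, and Acta2, the smooth muscle actin gene, was lowest in co-cultures 5, 3 and 2, at 9962, 13664 and 13739. The part of the stromal share in the Igfbp7 values was not tested.

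**Figure D3:**
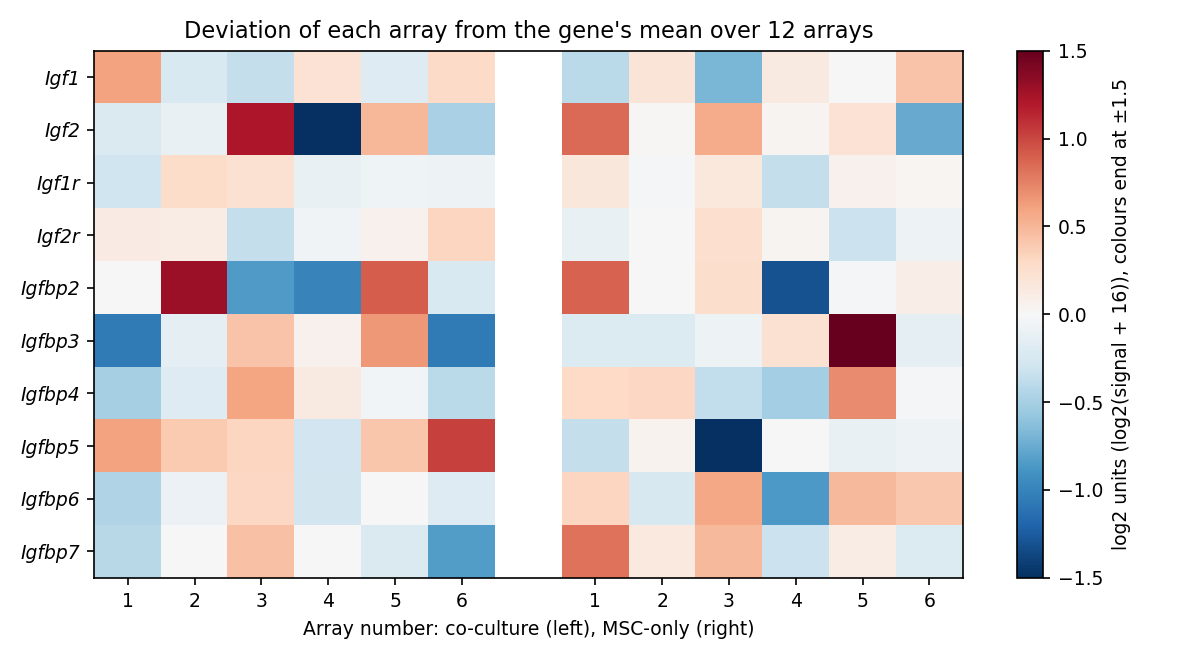
Deviation of each array from the gene's mean over 12 arrays, in log2 units of log2(signal + 16), for the brightest probe set of each IGF family gene, with co-cultures on the left and MSC-only arrays on the right. Igf1 is high (red) in co-cultures 1, 4 and 6 and MSC-only arrays 2, 4 and 6, Igfbp4 is low in co-cultures 1, 2 and 6 and MSC-only arrays 3 and 4, and the widest deviations are those of Igf2 at -1.83 in co-culture 4 and Igfbp5 at -1.99 in MSC-only 3, whose mean signals of 116.5 and 101.8 are low.

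Igfbp5, which encodes a matrix-bound binding protein abundant in bone, had the largest difference in the family, and its probe sets disagreed. The probe set 1422313_a_at gave 147, 125, 118, 71.7, 126 and 202 in co-cultures 1 to 6 and 67.5, 94.7, 10.9, 90.7, 83.0 and 85.0 in MSC-only arrays 1 to 6. All co-cultures except co-culture 4 were above every MSC-only array. The log2 difference was 0.83 (SE 0.33, 95% interval 0.11 to 1.55), with an unadjusted p of 0.0276, an adjusted p of 1 from limma and a two-sided exact permutation p of 0.0130 that was also 1 after adjustment over all probe sets. The low MSC-only array 3 carried part of the difference, which was 0.51 without it. The second probe set, 1452114_s_at, gave 28.4, 57.4, 75.3, 48.5, 4.4 and 17.0 in co-cultures 1 to 6 and 189.8, 160.4, 8.5, 45.0, 65.0 and 51.1 in MSC-only arrays 1 to 6, a difference of -0.75 (SE 0.51, limma adjusted p = 1). Averaged over both probe sets the Igfbp5 difference was 0.04. Without the arrays numbered 3 and 4 the first-named probe set differed by 0.74 (limma adjusted p = 0.496), with co-cultures at 124.8 to 201.9 and MSC-only arrays at 67.5 to 94.7, and the second by -1.62 (limma adjusted p = 0.588). The genes most like 1422313_a_at over the 12 arrays were Caap1, Nek9, Zdhhc9, Irf5 and Eif4enif1, with Pearson's r of 0.910 to 0.877 among 10179 genes compared, again as a description. These r values include MSC-only 3, by far the widest deviation of this probe set at -1.99 log2 units, and were not computed without it.

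The remaining binding protein genes were dim, with mean signals under 100. Igfbp2, whose product is the main binding protein of fetal fluids, ranged from 18.7 over a median of 48.2 to 152.7 in co-culture and from 12.0 over a median of 55.8 to 111.9 in MSC-only arrays, a difference of 0.03 (SE 0.43). Igfbp3, which encodes the chief carrier of IGFs in serum, ranged from 7.2 over a median of 31.6 to 60.2 in co-culture and from 25.9 over a median of 29.0 to 120.7 in MSC-only arrays at 1458268_s_at, a difference of -0.37 (SE 0.37), while its second probe set differed by 0.29. Igfbp6, whose product prefers IGF2, ranged from 50.3 over a median of 66.1 to 96.5 in co-culture and from 33.7 over a median of 100.6 to 119.5 in MSC-only arrays, a difference of -0.23 (SE 0.24). All 3 had overlapping groups, and without the arrays numbered 3 and 4 the differences were 0.25 for Igfbp2, -0.64 for Igfbp3 and -0.43 for Igfbp6 (limma adjusted p of 0.938, 0.871 and 0.733). Differences at such signals move with the constant of the log scale, and the intervals of Igfbp2 (-0.90 to 0.97) and Igfbp3 (-1.16 to 0.43) leave room for changes of either direction.

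**Figure D4:**
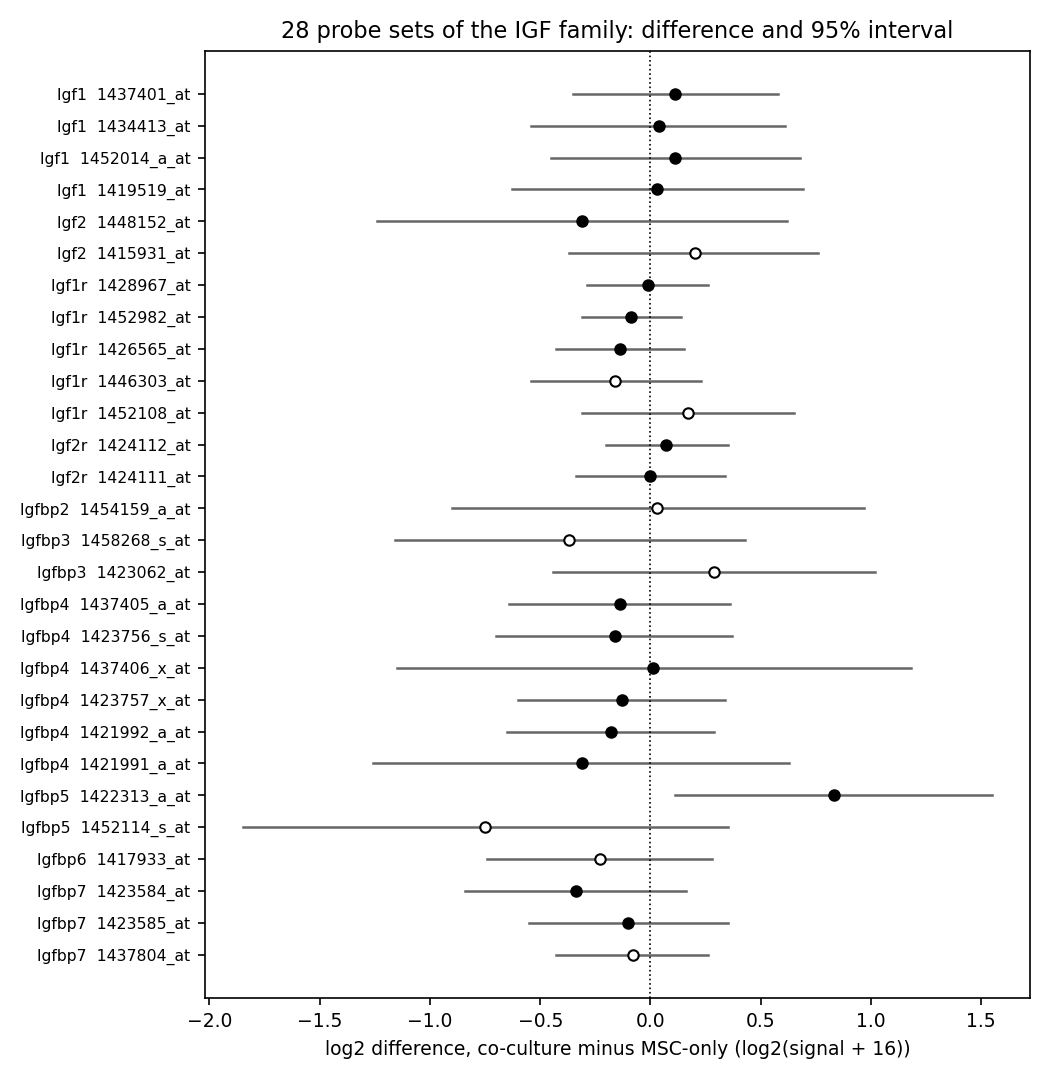
Difference between co-culture and MSC-only arrays for all 28 probe sets, in log2 units of log2(signal + 16), with the 95% interval of limma as a line and open circles for probe sets with a mean signal under 100. Intervals include 0 for 27 probe sets, and the exception is Igfbp5 1422313_a_at at 0.83, whose other probe set lies at -0.75.

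In other genes of the pathway, 23 of 26 listed genes were measured, of which 9 averaged higher and 14 lower in co-culture, with a median of -0.04 in log2 units. Of these, 0 passed limma in either direction (0.011% of all genes) and 0 had an unadjusted p under 0.05 (3.94% of all genes). By exact permutation 1 had an unadjusted p under 0.05 (4.08% of all genes), the adaptor gene Shc1, with a difference of -0.16, an exact p of 0.0152 and 4 co-cultures below every MSC-only array, and its exact p was 1 after adjustment over all probe sets. Inside the cell, Foxo3, a transcription factor restrained by IGF signaling, averaged 3178 ± 468 in co-culture and 2745 ± 217 in MSC-only arrays (SD, n = 6 each), a difference of 0.20 (SE 0.11). Pik3r1, the regulatory subunit gene of phosphoinositide 3-kinase, and the kinase gene Akt1 differed by 0.06 (SE 0.13) and 0.08 (SE 0.10). Outside the cell, Htra1, a protease that degrades binding proteins, averaged 1278 ± 561 in co-culture and 1586 ± 635 in MSC-only arrays (SD, n = 6 each), a difference of -0.30 (SE 0.32) that was -0.75 without the arrays numbered 3 and 4 (limma adjusted p = 0.699). Pappa, named after its values were seen, differed by -0.45 (SE 0.25), and the adaptor gene Grb10, which restrains the receptor, by -0.33 (SE 0.21). The growth hormone receptor gene Ghr differed by -0.07 (SE 0.23). Without the arrays numbered 3 and 4 the differences were 0.23 for Foxo3, 0.01 for Pik3r1, 0.05 for Akt1, -0.42 for Grb10 and -0.16 for Ghr.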

How the data were processed

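Total RNA of 12 cultures was hybridised to Affymetrix mouse expression arrays. The deposited signal is linear and, by the study's methods, was made by the authors with Affymetrix's GeneChip Operating Software; how probes were summarised, and to which target signals were scaled, is not stated in what was read here. The values behave as scaled, since the 2% trimmed mean of each array was 496.6 to 497.3. No detection calls or reads were used, so the number of arrays limits the precision.

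Signals were tested as log2(signal + 16) by the two-sided moderated test of limma (version 3.58.1, run in R 4.3.3), with Benjamini-Hochberg adjustment over 45037 probe sets and a threshold of 0.05. They were also tested by exact permutation over the 924 arrangements of 12 arrays, whose smallest p is 0.0022, in Python 3.11.15. SciPy 1.17.1 gave the t quantiles of the intervals and the trimmed means. Count tools named for the study do not suit signals and were not used. Probe sets were named from the platform annotation. Of these, 34945 had 1 symbol, 932 several and 9160 none, and 34741 matched a RefSeq gene ID. The probe set of highest mean signal stood for its gene. Probe sets ending in _s_at or _x_at can pick up transcripts of other genes, and 1 probe set annotated to Igf2r together with another gene was left out. The rule for names took all 10 members, the 6 brightest other pathway genes, up to 4 of the brightest markers of each cell type list, the sort markers, the sex-linked genes and the genes most like the 2 members of widest range. Not all of these are printed. Adgre1, Itgam, Msr1, Cxcl12, Col3a1, Dcn, Pappa and Shc1 lie outside it and were named after their values were seen. Members, lists and tests were chosen with earlier results of these data known. On simulated data with 50 changed probe sets of each size, made for co-culture against MSC-only over 45037 probe sets, limma recovered 40%, 90%, 96% and 100% of log2 changes of 0.5, 1, 1.5 and 2 in probe sets with a mean signal of at least 100, with 9 false calls. The simulated noise was independent between probe sets, and the changed ones were drawn at random. Igf1, Igf2, Igfbp4, Igfbp5 and Igfbp7 spread more than most such probe sets, at percentiles of 88.3 to 98.6. Igf1r and Igf2r lay near the middle. The recovered shares therefore cannot be carried over to the family. Alternatives were other scalings and log constants, leaving out dim probe sets, blocking on the replicate number, the methods' t-test and leaving out arrays. The sources do not say whether the co-cultured cells were in direct contact or whether cells were sorted again before RNA extraction.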

Additional observations from a re-analysis of the deposited data

Results flagged for a closer look

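Of 68 groups of 6 arrays checked, 3 held an array whose distance from the nearest other exceeded Dixon's 95% critical value, and chance alone flags about 1 group in 20. Igf1r at 1428967_at was 514.8 in MSC-only 4, where the other MSC-only arrays were at 658.4 to 747. Igfbp3 at 1458268_s_at was 120.7 in MSC-only 5, where the other MSC-only arrays were at 25.9 to 40.9, and without this array the Igfbp3 difference was -0.10, against -0.37 with it. Igfbp5 at 1422313_a_at was 10.9 in MSC-only 3, where the other MSC-only arrays were at 67.5 to 94.7, and this array enlarged the Igfbp5 difference.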

How the results depend on the processing

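No probe set of the family or of the other pathway genes passed the adjusted threshold of limma under any setting tried. Over all probe sets, the 2 calls became 1 with quantile normalization, centring on the array median, centring on the 75th percentile, log2(signal + 1) or the methods' t-test after Benjamini-Hochberg adjustment. They became 0 with log2(signal + 64), with probe sets of a mean signal of at least 100 only, with trend and robust fitting and with exact permutation of every probe set, where 1953 had an unadjusted p under 0.05. Without the arrays numbered 3 and 4 there were 8, and with 1 array left out 0 to 4, with 0 without co-culture 3 or MSC-only 1 and 4 without MSC-only 6. With the replicate number as a fixed block there were 0 calls and 2136 at an unadjusted p under 0.05. Same-numbered samples correlated at -0.45 to 0.43 in their deviations, and 0 of 6 numbers were best matched by their own partner. This check cannot exclude a shared source. The deviations also held the first principal component, which set the arrays of numbers 1 and 2 on opposite sides. The main test did not take the numbers as pairs, although the sample titles carry the same numbers in both groups. The arrays numbered 3 and 4 nevertheless had Xist without Eif2s3y in both groups. Whether same-numbered samples share a cell source was not tested. Scaling changed the split of unadjusted calls, with 1264 higher and 700 lower as reported, 919 and 1010 after quantile normalization and 893 and 1065 after centring on the median.

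Igfbp5 at 1422313_a_at lay between 0.51 and 0.97 with 1 array left out, and at 0.04 when averaged over both probe sets. Igfbp2 (0.03 as reported) turned to -0.00 with quantile normalization and -0.01 with median centring. With 1 array left out, Igfbp2 ranged from -0.23 to 0.24, Igf1 from -0.01 (without MSC-only 3) to 0.21, Igf2 from -0.59 to 0.02 (without co-culture 4), Igf1r from -0.09 to 0.04 and Ghr from -0.17 to 0.06, so that these 5 directions are not settled; the cause was not tested. The others kept their direction at the brightest probe set, with Igf2r at 0.02 to 0.15, Igfbp3 at -0.53 (without co-culture 5) to -0.10 (without MSC-only 5), Igfbp4 at -0.27 (without co-culture 3) to -0.02 (without MSC-only 5), Igfbp6 at -0.43 (without MSC-only 4) to -0.14 (without MSC-only 3) and Igfbp7 at -0.47 (without co-culture 3) to -0.21 (without co-culture 6 or MSC-only 1). This does not settle the direction of Igfbp3, whose second probe set differed by 0.29 and whose average over both was -0.04. Nor does it settle that of Igfbp4, where 1437406_x_at differed by 0.01 and the arrays numbered 3 and 4 went the other way. The SD of Igfbp3 over arrays was 1.09 with log2(signal + 1), against 0.69 as reported.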
